A study of Mus musculus with 6 samples.

Results

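The genes described here encode proteins of the lipid droplet surface and of the control of lipolysis. They are the perilipin coat genes Plin2, Plin4 and Plin5, the droplet fusion genes Cidea and Cideb, the lipase inhibitors G0s2 and Hilpda, the droplet budding genes Fitm1 and Fitm2, and the droplet enzyme Hsd17b13. Members were taken by name as every probe set annotated to exactly 1 of these symbols, which gave 12 probe sets for the 10 genes among 45141 probe sets and 17097 genes in all. Where a gene had several probe sets, the one of highest mean over the 6 arrays carries its main value.

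RNA came from the livers of C57BL/6 mice, either wild type or lacking Nrg4, the gene of the secreted ErbB ligand neuregulin 4. At the age of 3 months both genotypes were put on a high-fat diet, which lasted 8 weeks, and livers were taken from random-fed mice. Each genotype had 3 Affymetrix MG-430 PM arrays, and separate pools of liver RNA were hybridised to them. How many mice formed a pool and how the knockout allele was made is not stated in the labels, so p-values measure the spread among pools and not among single mice.

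Hepatocytes store triglyceride in droplets that bud from the endoplasmic reticulum under a single layer of phospholipid. Coat proteins of the perilipin family decide how easily lipases reach the stored fat, CIDE proteins let droplets pass lipid to each other and grow, and small inhibitors hold back adipose triglyceride lipase, the enzyme that starts lipolysis. Fatty liver of many kinds carries more of several of these proteins, and many of their genes are known targets of the fatty acid-sensing receptors of the PPAR family.

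The arrays were first checked against their labels. On the log2 scale Nrg4 read 4.94, 4.79 and 4.77 in wild type, against 2.56, 2.43 and 2.64 in the knockout (limma adjusted p = 4.76e-05); whether its probe set lies in the deleted part is not stated in the labels. All 12 hepatocyte markers, such as Alb and Hnf4a, were above the limit for dim probe sets, a log2 value of 2.66. Across the 12466 genes tested the median log2 change, knockout minus wild type, was 0.045, and 63.4% had a higher value in the knockout. Control probe sets of 18S ribosomal RNA lay between 7.45 and 8.80 in the wild-type arrays and between 5.61 and 6.89 in the knockout arrays, and their part in the results below was not tested. Knockout replicate 1 stood apart in the difference of 5' and 3' control signal, averaged over Actb and Gapdh, at -1.31 against -0.96 to -0.65 in the other arrays.

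No member passed the limma test over all genes at an adjusted p under 0.05, where 0.0401% of all genes did. Cidea passed the filter on dim probe sets only through the knockout arrays, since its wild-type mean of 2.53 was under the limit, so it is left out of the next count. At an unadjusted p under 0.05 there were 2 of the other 9 members, Plin4 and G0s2, against 9.55% of all genes. The lowest adjusted p of a member was 0.218 and the highest 0.996. A higher value in the knockout was seen for 7 members, Cidea among them, and a lower value for 3, where 63.4% of all genes were higher. The members' median log2 change was 0.11 with Cidea and 0.10 without it, against 0.045 for all genes. Knockout and wild-type arrays were fully separated in 5 members, 4 of them higher and 1 lower in the knockout, against 15.6% of all genes. In Cideb and Hsd17b13, however, the gap between the genotypes was only 0.001 and 0.014 on the log2 scale, and the members were chosen with earlier results of these data known.

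**Figure D1:**
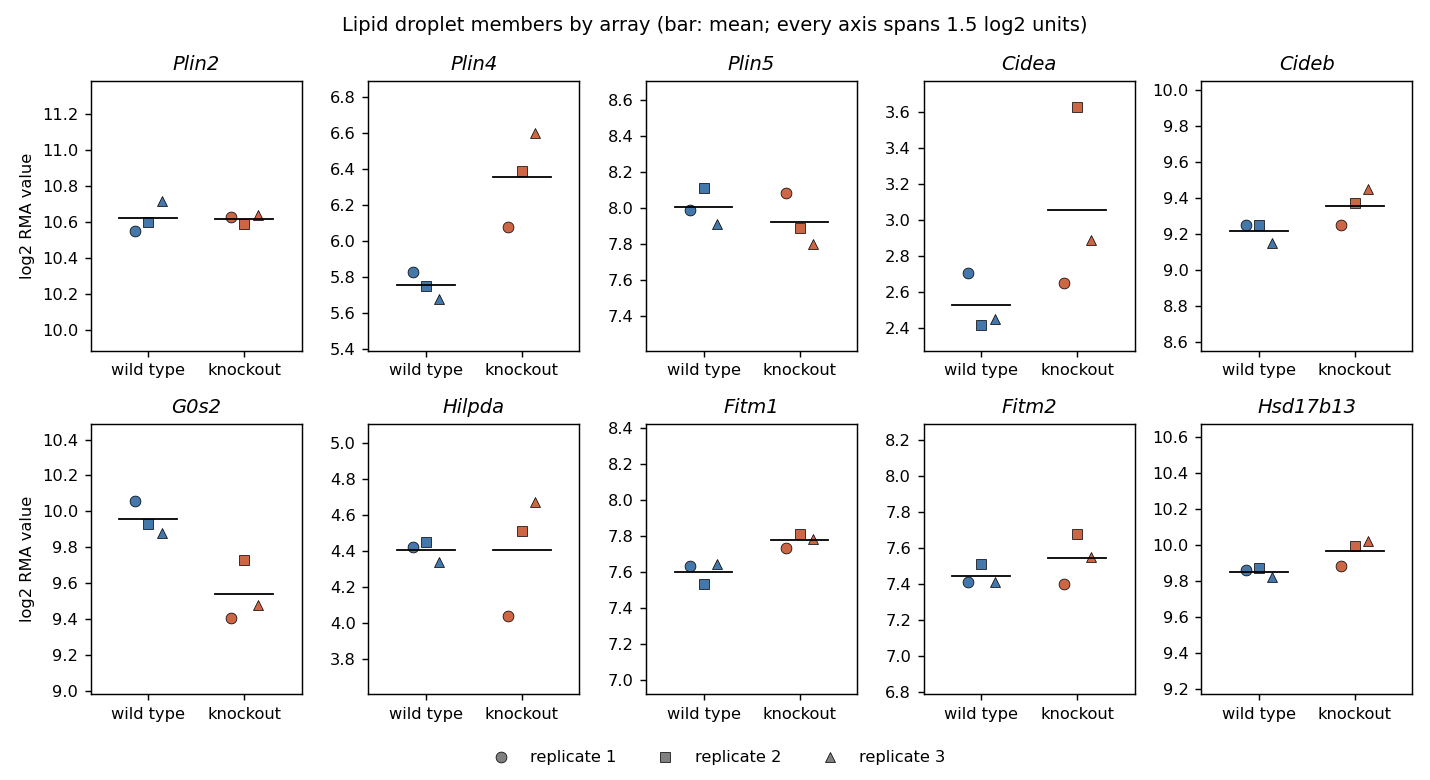
Log2 RMA value (y axis) of each member's main probe set in the 3 wild-type and 3 knockout arrays (x axis); each point is 1 array, its shape gives the replicate number, the bar is the mean, and every panel spans 1.5 log2 units. Plin4 lies between 5.68 and 5.83 in wild type and between 6.08 and 6.60 in the knockout, while G0s2 lies between 9.88 and 10.06 in wild type and between 9.41 and 9.73 in the knockout.

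Upstream sequences of 3 members are shown because Plin4 and G0s2 carried the 2 smallest p-values of the group, in opposite directions, and Plin5 is the next gene to Plin4 on the chromosome. Each is the 250 bases before the annotated start, from RefSeq on build GRCm38.p6, written 5' to 3' on the gene's own strand. They lie at chr17:56109783-56110032 for Plin4, chr17:56117549-56117798 for Plin5 and chr1:193273189-193273438 for G0s2, all on the minus strand; of the 2 starts listed for Plin5 the outer one was used. Capitals mark the AGGTCA half-site bound by many nuclear receptors, the CCAAT box and GCGTG, each searched on both strands. GCGTG is the core of some hypoxia response elements, and other forms of that core were not searched.
Plin4: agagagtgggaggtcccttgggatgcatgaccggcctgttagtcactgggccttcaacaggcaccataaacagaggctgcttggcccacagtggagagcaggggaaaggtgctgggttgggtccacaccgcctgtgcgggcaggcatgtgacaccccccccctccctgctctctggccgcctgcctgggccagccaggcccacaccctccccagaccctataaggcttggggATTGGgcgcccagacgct
Plin5: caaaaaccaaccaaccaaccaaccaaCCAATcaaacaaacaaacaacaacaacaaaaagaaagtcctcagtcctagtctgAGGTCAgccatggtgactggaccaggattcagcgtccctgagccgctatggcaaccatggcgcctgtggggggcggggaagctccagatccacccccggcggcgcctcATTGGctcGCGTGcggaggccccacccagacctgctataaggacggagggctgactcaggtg
G0s2: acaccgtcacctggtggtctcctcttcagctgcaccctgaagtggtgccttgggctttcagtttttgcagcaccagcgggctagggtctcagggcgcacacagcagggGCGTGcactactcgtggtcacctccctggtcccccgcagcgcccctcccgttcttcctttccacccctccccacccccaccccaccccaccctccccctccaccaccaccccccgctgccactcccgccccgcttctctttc

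The Plin4 window held 1 match, a CCAAT box on the opposite strand whose match begins 18 bases before the start. The G0s2 window held 1 match as well, GCGTG beginning 142 bases before the start. The Plin5 window held 4 matches, 1 of AGGTCA, 2 of CCAAT and 1 of GCGTG. No 2 of these matches overlapped. Of 32851 RefSeq promoter windows of this length, 14% held AGGTCA, 33.8% CCAAT and 28.2% GCGTG. Among the 9 members with a promoter entry, AGGTCA was found for Plin2, Plin5 and Hsd17b13, CCAAT for Plin2, Plin4 and Plin5, and GCGTG for Plin2, Plin5, G0s2, Hilpda and Fitm2. These members had 11 windows, and a member counted if any of its windows matched, whereas the shares over all promoters are per window. All are matches of letters in a short window and not measured binding sites.

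The coat genes among the members had unlike log2 changes, and none of them passed the limma test as reported. Plin4, a perilipin best known from white fat and muscle that coats newly formed droplets, read 5.83, 5.75 and 5.68 in wild type and 6.08, 6.39 and 6.60 in the knockout. All 3 knockout arrays lay above every wild-type array, and the knockout arrays were spread over 0.52 log2 units against 0.15 in wild type. The value was 1.52-fold higher in the knockout (log2 change 0.61, SE 0.13, 95% interval 0.30 to 0.91, limma adjusted p = 0.218). It stood 87th of the 12466 genes by p, and 0.594% of all genes were higher in the knockout by more than Plin4. With arrays weighted by quality, where knockout replicate 1 had the lowest weight, 0.433, the limma adjusted p was 0.0471 at a log2 change of 0.68, and over the 15 alternatives it ranged from 0.0471 to 0.594. Without knockout replicate 1, the array with the lowest Plin4 value of the knockout, the log2 change was 0.74 (limma adjusted p = 0.0581).

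Plin2, the perilipin that coats most droplets of hepatocytes and is kept stable by bound lipid, differed little between the genotypes. It read 10.55, 10.60 and 10.72 in wild type and 10.63, 10.59 and 10.64 in the knockout. All 3 knockout values fell inside the wild-type range. The 95% interval of the log2 change, -0.20 to 0.19, corresponds to between 12.9% lower and 14.2% higher in the knockout, so larger differences lie outside the interval.

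Plin5, which tethers droplets to mitochondria and binds adipose triglyceride lipase and its co-activator, had 2 probe sets. The main one read 7.99, 8.11 and 7.91 in wild type and 8.08, 7.89 and 7.80 in the knockout (log2 change -0.08, SE 0.10, limma adjusted p = 0.834); this change was -0.16 without knockout replicate 1, -0.02 without knockout replicate 3 and -0.03 without wild-type replicate 2. The other read 7.27, 7.40 and 7.12 in wild type and 7.17, 7.06 and 6.88 in the knockout (log2 change -0.23, SE 0.11, limma adjusted p = 0.649 over all probe sets). On each probe set 2 of 3 knockout arrays lay below every wild-type array, and knockout replicate 1 lay inside the wild-type range. Plin4 and Plin5 are neighbouring genes, and within each array the Plin4 value minus that of the main Plin5 probe set was -2.16, -2.36 and -2.23 in wild type and -1.99, -1.50 and -1.20 in the knockout. This within-array difference was 0.69 higher in the knockout against the main Plin5 probe set and 0.83 higher against the other one. Genotypes did not overlap in either. Both comparisons use the same Plin4 values, and Plin4 alone was 0.61 higher without overlap, so they mostly restate Plin4. The difference was looked at after the values were seen, and 3 against 3 arrays cannot give an exact permutation p below 0.1.

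**Figure D2:**
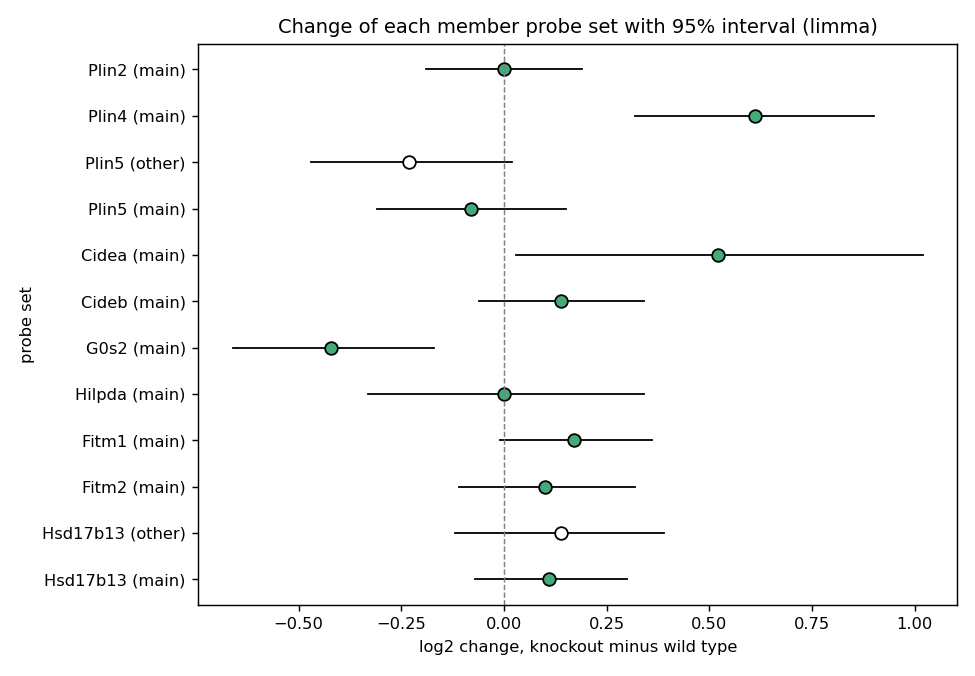
Log2 change, knockout minus wild type (x axis), of each of the 12 member probe sets (y axis) with its 95% limma interval from the fit of all probe sets; filled points are the main probe set of a gene and open points the other one. The intervals of Plin4 and G0s2 do not include 0, and G0s2 lies on the lower side. That of Cidea, which passed the dim filter only through the knockout arrays, begins at 0.03 and is not read as a test.

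Of the fusion genes, Cidea is a brown fat gene that liver expresses with fat accumulation, and Cideb is the form of healthy hepatocytes, where it also takes part in loading very-low-density lipoprotein with lipid. Cidea read 2.71, 2.42 and 2.45 in wild type and 2.65, 3.63 and 2.89 in the knockout. Knockout replicates 2 and 3 lay above every wild-type array, while knockout replicate 1 lay inside the wild-type range. The difference of the means, 0.52 on the log2 scale (SE 0.23), is given without a test, because the gene entered the fit only through its knockout arrays and its wild-type values are near or under the limit. It was 0.24 without knockout replicate 2 and 0.73 without knockout replicate 1. The 6 values averaged only 1.09-fold over the limit for dim probe sets, and 2 wild-type arrays and 1 knockout array were under it.

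Cideb read 9.25, 9.25 and 9.15 in wild type and 9.25, 9.37 and 9.45 in the knockout. The lowest knockout array and the highest wild-type arrays were equal to 2 decimals. The log2 change was 0.14 (SE 0.09, 95% interval -0.07 to 0.34, limma adjusted p = 0.653), and 0.09 without knockout replicate 3. Cideb did not pass the test.

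The lipase inhibitors gave a lower value for one and no difference in means for the other. G0s2, the G0/G1 switch gene whose protein binds and blocks adipose triglyceride lipase, read 10.06, 9.93 and 9.88 in wild type and 9.41, 9.73 and 9.48 in the knockout. All 3 knockout arrays lay below every wild-type array, with a gap of 0.143 between the genotypes. The value was 1.33-fold lower in the knockout (log2 change -0.42, SE 0.11, 95% interval -0.67 to -0.17, limma adjusted p = 0.314). Of all genes, 0.794% were lower in the knockout by more than G0s2. Over the 15 alternatives the log2 change stayed between -0.51 and -0.35 and the adjusted p between 0.137 and 0.805.

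Hilpda, a hypoxia-induced droplet protein that also inhibits this lipase, read 4.42, 4.45 and 4.34 in wild type and 4.04, 4.51 and 4.67 in the knockout. Knockout replicates 2 and 3 lay above every wild-type array and knockout replicate 1 below all of them. The means were 4.40 ± 0.06 and 4.41 ± 0.33 (SD, n = 3), and the 95% interval of the log2 change was -0.35 to 0.35 (limma adjusted p = 0.996). Without knockout replicate 1 the log2 change was 0.19 (limma adjusted p = 0.367).

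The budding genes Fitm1 and Fitm2 encode proteins of the endoplasmic reticulum that bind triglyceride and help droplets form, with Fitm1 best known from muscle. Fitm1 read 7.63, 7.53 and 7.64 in wild type and 7.73, 7.81 and 7.78 in the knockout. The genotypes did not overlap, and each was narrow, with a range of 0.11 in wild type and 0.08 in the knockout. The log2 change was 0.17 (SE 0.08, 95% interval -0.02 to 0.36, limma adjusted p = 0.55). Fitm2 read 7.41, 7.51 and 7.41 in wild type and 7.40, 7.68 and 7.55 in the knockout. Its genotypes overlapped, since knockout replicate 1 was the lowest of the 6 arrays, and the log2 change was 0.10 (SE 0.10, limma adjusted p = 0.775). It was 0.18 without knockout replicate 1 and 0.03 without knockout replicate 2.

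Hsd17b13, a liver-enriched enzyme of the droplet surface, read 9.86, 9.87 and 9.82 in wild type and 9.88, 9.99 and 10.02 in the knockout. The knockout arrays lay just above the wild-type arrays, and the log2 change was 0.11 (SE 0.08, 95% interval -0.08 to 0.30, limma adjusted p = 0.697). A further probe set of the gene read between 2.45 and 2.89, near the limit for dim probe sets, with a log2 change of 0.14 (SE 0.11) that ranged from 0.05 to 0.24 with 1 array left out.

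Among the knockout arrays, 1 array differed from the others across several members. In knockout replicate 1, 2 of the 10 members lay above their knockout mean, with a median deviation of -0.12, against 8 and 7 members in knockout replicates 2 and 3. Knockout replicate 1 also had the lowest 5' minus 3' control signal, -1.31, and the lowest array weight, 0.433, whose part in this was not tested. The wild-type arrays had 7, 5 and 2 members above their own mean and median deviations between -0.07 and 0.02. Without knockout replicate 1 the median log2 change of the members was 0.18 in place of 0.11, and 17 genes in all passed the limma test in place of 5, none of them a member. For 7 of the 10 members the 95% interval of the log2 change lay inside -0.5 to 0.5; the exceptions were Plin4, Cidea and G0s2.

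**Figure D3:**
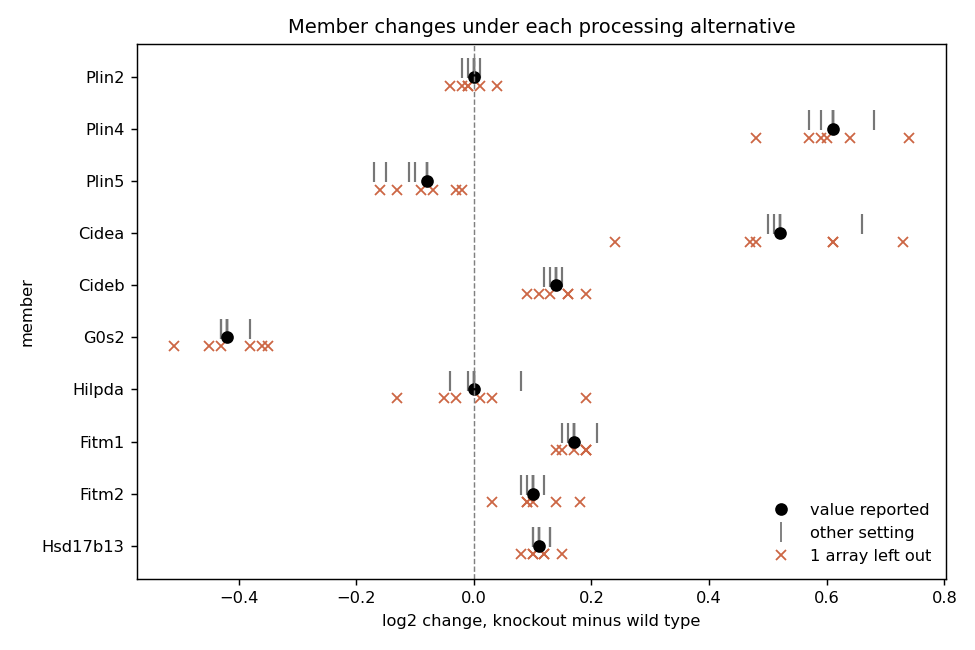
Log2 change, knockout minus wild type (x axis), of each member (y axis) as reported (black point), under the other settings (grey bars) and with 1 array left out (crosses). Plin4 stays between 0.48 and 0.74 and G0s2 between -0.51 and -0.35, while Plin2 and Hilpda fall on both sides of 0.

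The other genes of droplet coats and lipolysis were taken from a list of 29 names, of which 24 were tested. None passed the limma test, 14 had a higher and 10 a lower value in the knockout, and the median log2 change was 0.03, close to the 0.045 of all genes. At an unadjusted p under 0.05, 2 were higher and 1 lower, against 9.55% of all genes in either direction. Pnpla2, which encodes adipose triglyceride lipase, was under the limit for dim probe sets at 2.19, 2.13 and 2.39 in wild type and 2.13, 2.17 and 2.55 in the knockout, so the target of G0s2 and Hilpda could not be compared here. Plin1 and Cidec had no probe set with that symbol alone. Abhd5, the co-activator of that lipase, had a log2 change of 0.00 (SE 0.10, 95% interval -0.23 to 0.22). Lipe, hormone-sensitive lipase, stood at 0.04 (SE 0.11) and Mgll, monoacylglycerol lipase, at 0.16 (SE 0.10).

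Plin3, the perilipin that moves from the cytosol to new droplets, read 5.31, 5.36 and 5.19 in wild type and 5.37, 5.48 and 5.71 in the knockout. It thus had the sign of Plin4 at a log2 change of 0.24 (SE 0.11, limma adjusted p = 0.536). The smallest p-values among the other partners belonged to Rab7, a late endosome GTPase, at 0.26, to the carboxylesterases Ces1g at 0.31 and Ces1f at -0.25, and to Lipa, lysosomal acid lipase, at 0.21. Dgat2, which makes triglyceride, stood at 0.19 and Mttp, which loads it onto lipoproteins, at -0.19. The lowest limma adjusted p of these genes was 0.409. Another probe set of Rab7 gave a smaller value, 0.08. For Lipa, another probe set was close to the main one at 0.23, and a further one had the opposite sign at -0.34.

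Several members are known targets of PPAR alpha, so other such targets were set beside them. Of 14 targets tested, 2 had a higher and 12 a lower value in the knockout, and the median log2 change was -0.17. None passed the limma test, and 5 had an unadjusted p under 0.05, all of them lower, against 9.55% of all genes in either direction. The smallest p-values belonged to the acyl-CoA thioesterases Acot1 at -0.67 and Acot2 at -0.51, to Cyp4a31, a fatty acid omega-hydroxylase, at -0.96 and to Ehhadh, a peroxisomal enzyme, at -0.21, with limma adjusted p-values between 0.11 and 0.486. G0s2 shared their sign, as did Plin5 at -0.08 and -0.23 on its 2 probe sets. Plin2 stood at -0.00 and Hilpda at 0.00. Plin4 did not share the sign, nor did Cidea, which passed the dim filter only through the knockout arrays. Of all 10 members, 7 had a higher and 3 a lower value, where 63.4% of all genes were higher in the knockout. Hilpda is also a target of the hypoxia-inducible factors. Among 9 other HIF targets tested, 5 had a higher and 4 a lower value, with a median of 0.01 and none past the limma test or at an unadjusted p under 0.05. Vegfa stood at -0.24, Ankrd37 at 0.25, Egln3 at -0.19 and Ndrg1 at 0.20.

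**Figure D4:**
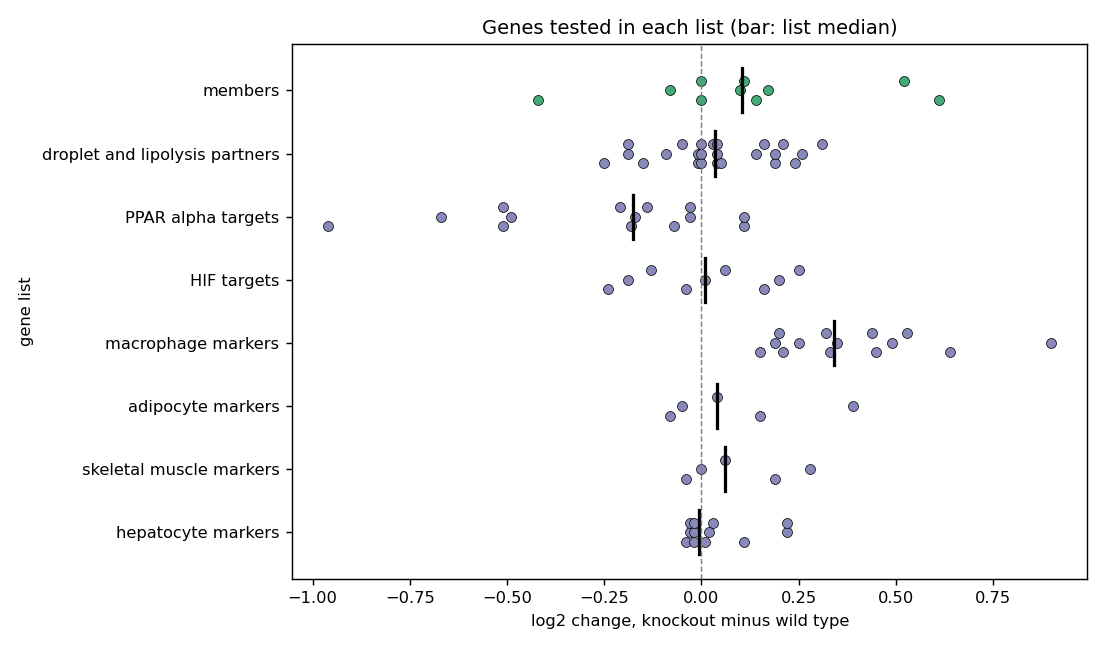
Log2 change, knockout minus wild type (x axis), of each gene tested in the members and the 7 comparison lists (y axis); each point is a gene, points are shifted vertically for clarity only, and the bar is the list median. The members' median is 0.11, PPAR alpha targets have a median of -0.17 and macrophage markers one of 0.34.

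Other cells of liver or nearby tissue also express members, and in bulk RNA fewer cells of a type and less RNA per cell cannot be told apart. Macrophages load lipid and carry Plin2 and Hilpda. All 14 macrophage markers had a higher value in the knockout, against 63.4% of all genes, with a median log2 change of 0.34. None passed the limma test, and 6 had an unadjusted p under 0.05, against 9.55% of all genes in either direction. Adgre1 stood at 0.64, Mpeg1 at 0.45 and Cd5l at 0.35. The summed signal of this list, as log2, was 10.60 to 10.76 in wild type and 10.72 in knockout replicate 1, 11.17 in replicate 2 and 11.29 in replicate 3. Without knockout replicate 1 the median of the list was 0.52 and without knockout replicate 3 it was 0.23. Within the knockout 8 of the 10 members, Hilpda among them, were lowest in replicate 1 as this sum was. Plin2, at 10.63 against 10.59 and 10.64, and Plin5, at 8.08 against 7.89 and 7.80, were not. In wild type 7 members were lowest in replicate 3, where the macrophage sum was 10.73. That sum was lowest in wild-type replicate 2, at 10.60. The summed signal of hepatocyte markers was also lowest in knockout replicate 1, at 14.90 against 14.99 and 14.97. The part of macrophages in these values was not tested, nor was that of the 5' and 3' control signal of knockout replicate 1.

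Fat tissue carries Plin4 and Cidea, and its hormone genes Adipoq and Lep had means under the dim limit, as did the mitochondrial gene Cox7a1. Adipoq was 2.38, 2.53 and 3.19 in wild type and 2.21, 2.37 and 2.32 in the knockout. Lep was 2.64, 2.59 and 2.77 against 2.54, 2.77 and 2.55, and Cox7a1, the other way, 2.59, 2.24 and 2.43 against 2.79, 2.67 and 2.64. Of the 5 adipocyte markers tested, 3 had a higher and 2 a lower value (median 0.04, from -0.04 to 0.13 with 1 array left out), led by Fabp4 at 0.39, then Elovl3 at 0.15 and Ucp1 at -0.08. The summed signal of all 8 adipocyte markers with a probe set, dim ones included, was 8.76 to 9.22 in wild type and 9.14 to 9.26 in the knockout. Elovl3, the brightest of them, read 8.28 to 8.77 in wild type and 8.71 to 8.80 in the knockout, so the sum mostly follows this gene. With the means of Adipoq and Lep under the limit, neither the sum nor the counts are read as a measure of fat tissue. Muscle carries Fitm1, Plin4 and Plin5. Of 10 muscle markers, 5 were under the limit, among them Acta1, Myh1 and Myh2, and the summed signal was 6.11 in each wild-type array and 6.17 to 6.23 in the knockout. The 5 tested were near the limit too, with wild-type means from 2.76 for Myh4 to 3.46 for Mb, so this sum is made of weak signals. They had 4 higher values and 1 lower, a median of 0.06 and 1 unadjusted p under 0.05, against 63.4% higher and 9.55% under 0.05 among all genes. Mylpf stood at 0.28, Actn3 at 0.19, Mb at 0.06, Myh4 at 0.00 and Ckm at -0.04. Hepatocyte markers had 6 higher and 6 lower values, with Tat at 0.22, Fgb at 0.11 and Ass1 at 0.22, and a summed signal of 14.91 to 14.97 in wild type and 14.90 to 14.99 in the knockout.

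The genes whose profiles lay closest to Plin4 over the 6 arrays, by the mean absolute difference of mean-centred log2 values, were Clca3a2 at 0.041, Basp1 at 0.0501 and Ppif at 0.0577. Their log2 changes were 0.65, 0.59 and 0.53, and none passed the limma test. Closest to G0s2 were C630043F03Rik at 0.0403, Ugt2b35 at 0.0416 and Fbrsl1 at 0.0575, with log2 changes of -0.35, -0.39 and -0.47. With 12466 genes and 6 arrays, some close profiles arise in any such search, and these are a description only.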

How the data were processed

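Total RNA was extracted with Trizol, and 250 ng per array was labelled with a 3' IVT kit, per the labels' protocols. Tools named in the submitters' processing notes are affy, RMA and limma, without versions or a genome build. The deposited values are log2 RMA values made by the authors (background subtraction, quantile normalization and probe summary), between 1.03 and 12.53 with array medians of 2.98 to 3.04; quantile normalization reduces any shift common to most genes.

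Gene symbols came from GEO's platform annotation, and only probe sets with a single symbol were used for genes. Each gene was represented by its brightest probe set, and genes whose mean lay below the 40th percentile over probe sets (log2 2.66) were dropped as dim, which kept 12466 of 17097 genes and all 10 members. The limit is not a measured background. Genotypes were compared with limma 3.58.1 in R 4.3.3 (lmFit, eBayes, two-sided) and Benjamini-Hochberg adjustment over all genes at 0.05, and member probe sets in a fit of all probe sets. The test was checked on simulated data. Lists are described by counts and medians, without a set test. The number of arrays limits the precision.

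The members and lists were chosen with earlier results of these data known. The rule for named genes took all members, Nrg4, 7 fixed lipolysis and coat genes, the 6 other partners, 4 PPAR alpha and 4 HIF targets and 3 markers per list with the smallest p, and the 3 profiles closest to Plin4 and to G0s2; the other dim or illustrative genes named were added after their values were seen. Alternatives were array weights, another quantile normalization, median centring, a robust prior or a variance trend, no filter or a 60th percentile filter, averaging a gene's probe sets, each array left out, the replicate number as a block, and adjusted p under 0.10.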

Additional observations from a re-analysis of the deposited data

How the results depend on the processing

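No member passed limma's test at an adjusted p under 0.05 in 14 of the 15 refits, or under 0.10 in the reported fit; with array weights 1 member, Plin4, did. Plin4, Plin5, Cidea, Cideb, G0s2, Fitm1, Fitm2 and Hsd17b13 kept their direction in every refit that tested them; Cidea was not tested with the filter at the 60th percentile. Plin2 turned to 0.01 with array weights, to 0.04 without wild-type replicate 3 and to 0.01 without knockout replicate 2. Hilpda turned to -0.04 with quantile normalization again, to -0.01 with median centring, to -0.03 without wild-type replicate 3, to -0.05 without knockout replicate 2 and to -0.13 without knockout replicate 3, with a range of -0.13 to 0.19 over the arrays left out. The cause was not tested; both changes were 0.00 as reported. The members' median of 0.11 ranged from 0.07 to 0.18 with 1 array left out and from 0.09 to 0.12 otherwise.

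Of all genes, 5 passed as reported, 8 with quantile normalization again, 29 with a variance trend, 50 with array weights, 30 under 0.10, 3 with the filter at the 60th percentile, 3 with the mean of probe sets, and from 1 to 17 with 1 array left out. With the replicate number as a block 2 passed, no member among them, and no call of a member changed. The sample titles give only a replicate number for each pool. Deviations of same-numbered arrays from their genotype means correlated at -0.105, 0.08 and 0.002. These values show no clear shared effect but cannot exclude that the pools were paired. Members near the dim limit, such as Cidea, are limited by their weak signal.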
